A study of Mus musculus with 8 samples.

Results

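The genes followed across these 8 livers were 10 of the p53 pathway and of growth arrest: Trp53, Cdkn1a, Cdkn2a, Mdm2, Gadd45a, Gadd45b, Gadd45g, Bax, Perp and Ccng1. They were chosen by name, and each was read on the brightest probe set (the group of short probes for a transcript) that the array's annotation assigned to that gene alone. Of the 10 genes, 8 had such a probe set among the 8251 named genes of the array, on 10 probe sets in all. Trp53 and Bax had none and were not analysed here. The mean intensity of 5 genes (Cdkn1a, Mdm2, Ccng1, Perp and Gadd45a) reached the brightness set for testing, 165 on the array's scale, while Cdkn2a, Gadd45b and Gadd45g were dimmer and are described.

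RNA came from whole livers of female Ames dwarf mice (df/df), each hybridised to its own Affymetrix U74Av2 array. Ames dwarfs are a long-lived strain whose pituitary does not make growth hormone, prolactin or thyrotropin. All 8 animals were homozygous for the dwarf mutation, drank freely and were given 30% less food than freely fed dwarf females ate, and they were killed at 24 to 26 months. They form 1 group with no second diet or genotype beside it, so every comparison is between mice, and each mouse has 1 array with no repeat to measure its own error. Fed dwarfs and non-dwarf mice were not analysed here, and a high or low level cannot be tied to the mutation, the diet or age.

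The p53 protein is a transcription factor that is kept scarce by Mdm2, a ubiquitin ligase whose gene p53 itself induces, so that the pair form a feedback loop. DNA damage and other stresses release p53 from Mdm2, and p53 then induces genes that stop the cell cycle, repair DNA or start cell death. Control of p53 lies mostly in the stability of its protein, and the mRNAs of its targets are the usual readout of its activity, although many of them, Cdkn1a above all, are induced by other factors too. In liver, the products of Cdkn1a and Cdkn2a are best known as brakes on hepatocyte division and as marks of senescent cells.

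The sequences below show where p53 half-sites stand in front of the tested genes, in the 250 bases before an annotated start. They are RefSeq sequences of build GRCm38.p6, read 5′ to 3′ on the gene's strand, and capitals mark each match to the p53 half-site, the 10-letter consensus of which a full p53 element holds a pair. The search covered both strands and allowed matches to overlap.
Cdkn1a, chr17:29090729-29090978, plus strand: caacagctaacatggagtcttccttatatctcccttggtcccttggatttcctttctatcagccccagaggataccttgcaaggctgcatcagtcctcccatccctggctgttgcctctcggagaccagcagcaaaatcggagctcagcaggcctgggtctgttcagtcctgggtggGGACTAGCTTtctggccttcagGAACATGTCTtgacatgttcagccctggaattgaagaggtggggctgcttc
Mdm2, chr10:117710759-117711008, minus strand: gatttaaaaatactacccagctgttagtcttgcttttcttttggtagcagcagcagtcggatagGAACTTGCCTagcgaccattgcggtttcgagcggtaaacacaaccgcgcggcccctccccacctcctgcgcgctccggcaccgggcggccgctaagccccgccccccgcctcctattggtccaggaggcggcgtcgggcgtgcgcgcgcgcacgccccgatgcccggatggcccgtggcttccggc
Ccng1, chr11:40755287-40755536, minus strand: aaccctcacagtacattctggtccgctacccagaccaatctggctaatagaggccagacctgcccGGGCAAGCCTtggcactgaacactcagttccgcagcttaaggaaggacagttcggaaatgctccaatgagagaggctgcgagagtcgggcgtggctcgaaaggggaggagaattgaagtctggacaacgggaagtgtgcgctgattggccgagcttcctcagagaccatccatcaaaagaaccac
Gadd45a, chr6:67037408-67037657, minus strand: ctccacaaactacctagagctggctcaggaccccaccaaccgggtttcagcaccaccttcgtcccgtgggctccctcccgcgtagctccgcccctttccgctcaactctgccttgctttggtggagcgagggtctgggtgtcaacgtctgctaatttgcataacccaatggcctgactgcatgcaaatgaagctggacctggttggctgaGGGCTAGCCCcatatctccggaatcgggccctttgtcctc

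RefSeq windows were at hand for 9 of the 10 genes (11 windows, since Cdkn1a and Cdkn2a have 2 starts each), and Perp had none. A half-site match stood in 6 of the 11 windows, one each for Cdkn1a, Mdm2, Ccng1, Gadd45a, Bax and Trp53, and in 7.13% of all 32851 windows of that length. The Cdkn1a window shown holds 2 matches and belongs to the start that lies 2790 bases before the other Cdkn1a start, whose own window holds none. The letters TTCNNNGAA, the element bound by interferon-activated STAT proteins, were found in 0 of the 11 windows and in 7.02% of all windows. A match describes these letters only. It is no evidence of binding in these livers.

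The deposited scaling held the mean intensity without the extreme 2% of probe sets equal to within 0.0140% between arrays. The array medians still differed, with mice 5, 4 and 7 lowest (146, 157 and 165) and mice 6 and 8 highest (174 and 177). The mean correlation of an array with the other 7 lay between 0.915 (mouse 6) and 0.953 (mouse 1). Mice 5, 6 and 8 had the lowest such correlations. Albumin, the hepatocyte's main secreted protein, ranged 1.51-fold. The summed intensity of the 8 measured hepatocyte markers ranged from 103262 in mouse 6 to 149920.2 in mouse 3. Of these 8 markers 2 ranged at least 2-fold, Hnf4a (4.92-fold) and Apob (3.95-fold), and both were lowest in mouse 5. The labels give no scan date or other batch.

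Cdkn1a encodes p21, an inhibitor of cyclin-dependent kinases and the best known arrest gene under p53. Its brightest probe set averaged 321 ± 138 (SD, n = 8), with 151 in mouse 4 as the lowest value, a median of 298 and 544 in mouse 6 as the highest. The values were spread without a gap, with mice 3, 6 and 8 above 400 and mice 4 and 7 below 200. The highest value was 3.59 times the lowest, and its SD of 0.65 on the log2 scale was above that of 94.0% of the tested genes. A second Cdkn1a probe set averaged 209 ± 107, from 96.1 in mouse 5 over a median of 174 to 376 in mouse 8. Both probe sets had mice 3, 6 and 8 as their 3 highest, but they ordered the lower 5 mice differently, and their correlation over the mice was not past the threshold (r = 0.594, exact two-sided permutation p = 0.126; rho = 0.571, p = 0.151; adjusted p = 0.252 over the 2 pairs of probe sets compared; r = 0.628 without mice 4 and 6).

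Mdm2, the ligase that marks p53 for destruction, averaged 510 ± 135 (SD, n = 8), with 330 in mouse 2, a median of 529 and 691 in mouse 8. Mice 3, 6 and 8 again held the 3 highest values, with mouse 5 close below them at 558. Ccng1, which encodes cyclin G1, a p53 target that brings a phosphatase to Mdm2, averaged 240 ± 77.5, from 163 in mouse 4 over a median of 228 to 401 in mouse 8. Mouse 8 stood above the rest of the Ccng1 values, the next of which was 272 in mouse 1, and mice 4 and 5 were the lowest at 163 and 164. Ranges were 2.10-fold for Mdm2 and 2.45-fold for Ccng1.

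Perp and Gadd45a had another order of mice. Perp, a membrane protein of desmosomes that p53 and p63 induce, averaged 1036 ± 180 (SD, n = 8), from 884 in mouse 1 over a median of 955 to 1377 in mouse 5. Gadd45a, a stress-induced protein that binds PCNA and mitotic kinase complexes, averaged 242 ± 57.9, from 188 in mouse 3 over a median of 224 to 362 in mouse 5. Both were highest in mouse 5, and mice 1 and 3 held the 2 lowest values of both. Their ranges were 1.56-fold for Perp and 1.92-fold for Gadd45a. After scaling to a common median Gadd45a ranged 2.21-fold, above Ccng1 (2.18) and Mdm2 (1.99), so the order of these genes by range rests on the scaling. The Perp SD of 0.24 was close to the median gene's 0.23.

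The 3 dim genes need more care, since their values lie nearer to the floor of 37.2, to which lower intensities were raised. Gadd45g, a relative of Gadd45a that cytokines induce, averaged 145 ± 77.6 (SD, n = 8), from 88.2 in mouse 4 over a median of 124 to 323 in mouse 6, with 182 in mouse 8 as the next value. Gadd45b, the relative induced by NF-kB and TGF-beta signalling, averaged 107 ± 38.1 on its brighter probe set, from 40.2 in mouse 8 over a median of 115 to 156 in mouse 1. Its other probe set shares probes with related transcripts. On it 5 mice did not reach the floor, and mouse 6 had 109. The 2 Gadd45b probe sets did not follow each other (r = 0.003, exact permutation p = 0.994, adjusted p = 0.994; rho = 0.245, p = 0.560; r = 0.361 without mice 2 and 8), so an order of the mice for Gadd45b cannot be given. Cdkn2a, whose locus encodes the kinase inhibitor p16INK4a and the Mdm2 inhibitor p19ARF, averaged 62.5 ± 29.7, from 20.4 in mouse 8 over a median of 68.4 to 95.1 in mouse 4, and lay under the floor in 2 mice. Which of the 2 Cdkn2a products its probe set reads was not looked up.

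**Figure D1:**
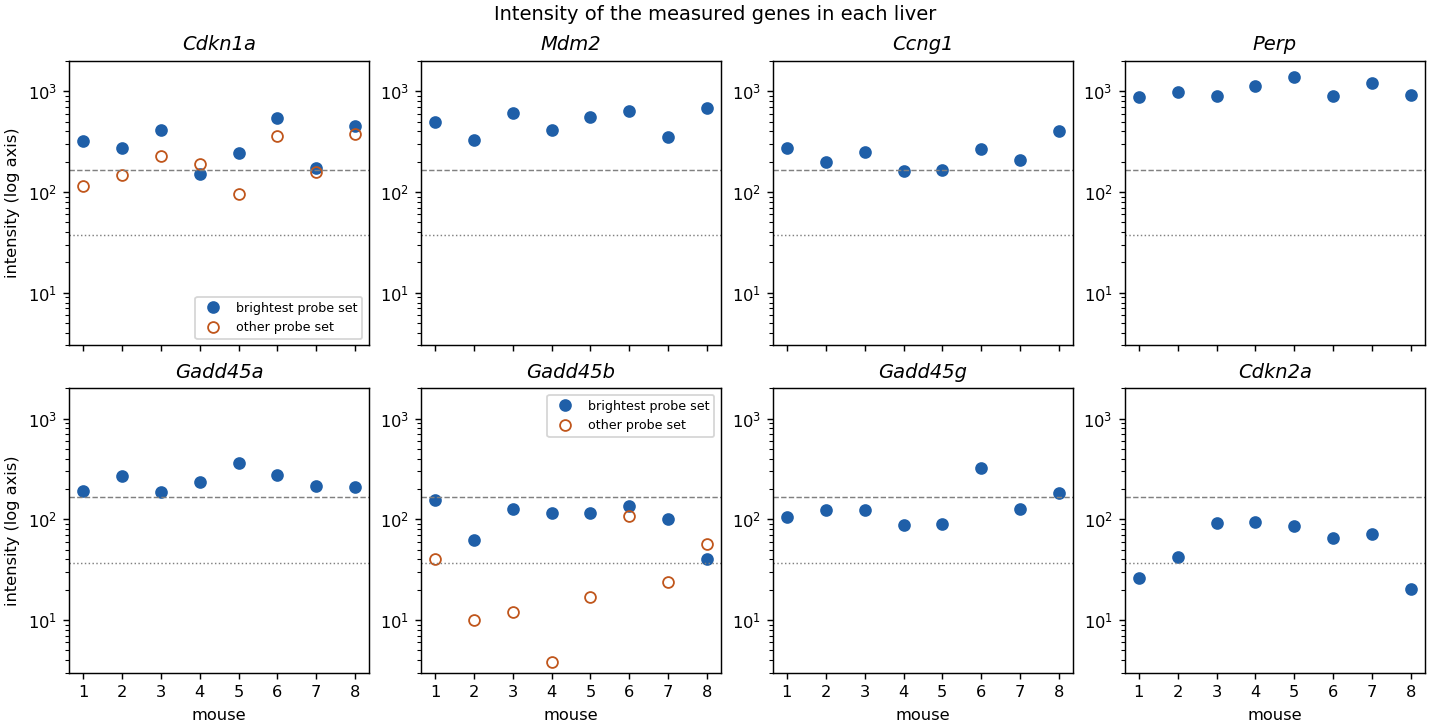
Intensity (log axis) of the 8 measured genes in each of the 8 mice, with filled points for the brightest probe set and open points for a second one; the dotted line is the floor of 37.2 and the dashed line the mean of 165 needed for testing. Cdkn1a and Gadd45g peak in mouse 6, Mdm2 and Ccng1 in mouse 8, and Perp and Gadd45a in mouse 5.

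Whether these differences between mice exceeded the spread usual at their brightness was tested in 1 fit over 6265 probe sets. A one-sided F test set each probe set's own variance against the trend with brightness fitted by limma, adjusted after Benjamini and Hochberg. None of the tested genes passed (0 of 5), and 0% of all probe sets did, not even Ubd, whose variance was 209 times the trend (adjusted p = 0.265), so with 8 mice the test separated no gene from the rest. At an unadjusted p under 0.05 the count was 0 of 5, against 6.38% of all probe sets, and it was 1 of 5 without mouse 1, 2, 5 or 8. In the F test across all probe sets Cdkn1a came nearest of the 5, with a variance 6.44 times the trend at its brightness (adjusted p = 0.780), followed by Mdm2 at 3.39 times (adjusted p = 0.955) and Ccng1 at 2.23 times (adjusted p = 0.989). Perp and Gadd45a lay at 1.40 and 1.26 times the trend. A chi-square test that takes the trend as exact marked Cdkn1a (adjusted p = 2.03e-06) and Mdm2 (adjusted p = 0.00903), 2 of 5, against 18.3% of all probe sets, and is given as a description. Without mouse 2, 7 or 8 it marked 1. A range of at least 2-fold was found for 3 of the 5 tested genes (Cdkn1a, Mdm2 and Ccng1), against 23.4% of the 4869 tested genes. With a common median it was again 3, but with Gadd45a in place of Mdm2, against 26.5% of genes. Over the 8 measured genes, with low values raised to the floor, it was found for 6, against 31.8% of all named genes. Mouse 8 weighs on that count, because without it Cdkn1a alone kept a range of 2-fold (1 of 5), against 21.1% of all genes.

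**Figure D2:**
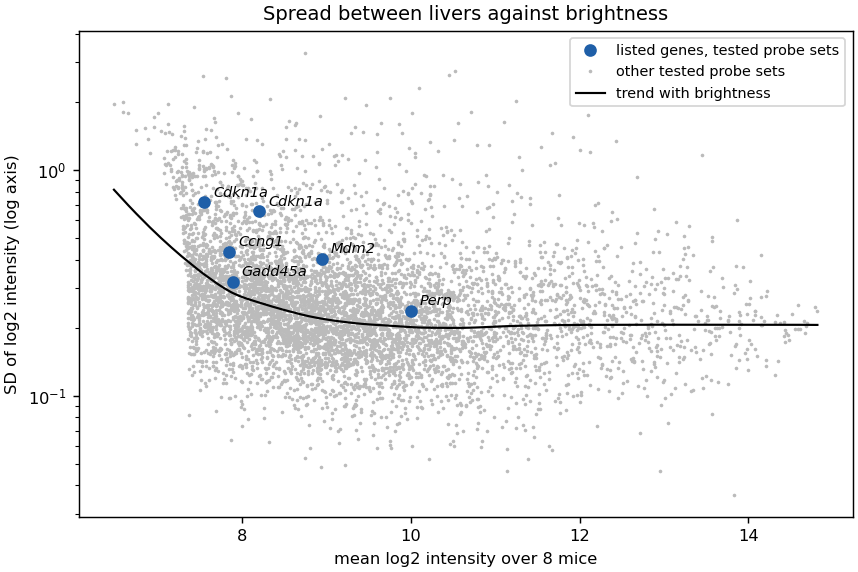
SD of log2 intensity over 8 mice (log axis) against mean log2 intensity, for the 6 tested probe sets of the 5 listed genes (blue), the other tested probe sets (grey) and the trend (line). Both Cdkn1a probe sets lie above the trend, and Gadd45a and Perp lie close to it.

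The next comparison was of the p53 targets with one another between mice. Because the p53 mRNA itself was not analysed here, Cdkn1a served as the point of comparison, and its correlation with each of 4868 other tested genes was taken on the log2 scale over the 8 mice. Mdm2 had r = 0.763 (exact two-sided permutation p = 0.0334, adjusted p = 0.237; rho = 0.762, p = 0.0368). Ccng1 had r = 0.761 (exact permutation p = 0.0272, adjusted p = 0.222; rho = 0.810, p = 0.0218). Perp ran the other way, with r = -0.726 (exact permutation p = 0.0458, adjusted p = 0.267; rho = -0.690, p = 0.0694), and Gadd45a had r = -0.129 (exact permutation p = 0.769, adjusted p = 0.922; rho = -0.190, p = 0.665).

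After adjustment over all genes none of the 4 passed, and none of the 4868 genes did (0%; the lowest adjusted p was 0.0747). At an unadjusted p under 0.05, 2 of the 4 went with Cdkn1a and 1 against it, while 9.12% of all genes went with it and 8.85% against. Without mice 4 and 6, the mice farthest from the median of Cdkn1a, r was 0.761 for Mdm2, 0.737 for Ccng1, -0.753 for Perp and -0.416 for Gadd45a. Against the second Cdkn1a probe set the signs were alike, and r was nearer 0 for all but Gadd45a, with r = 0.520 for Mdm2 (exact permutation p = 0.188), 0.663 for Ccng1 (p = 0.0703), -0.572 for Perp (p = 0.137) and -0.298 for Gadd45a (p = 0.477).

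**Figure D3:**
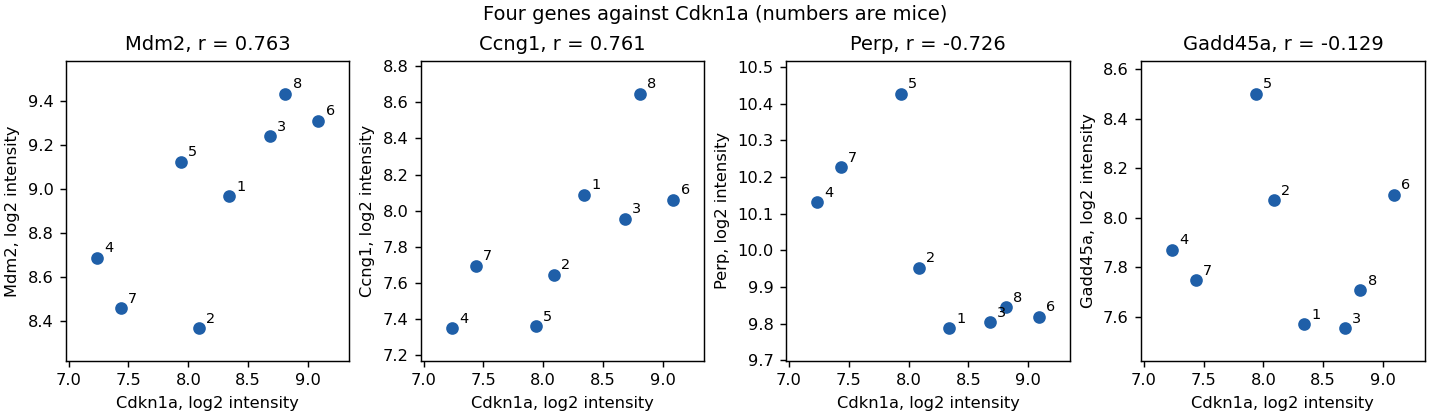
Log2 intensity of Mdm2, Ccng1, Perp and Gadd45a against that of Cdkn1a, 1 point per mouse with its number and Pearson r above each panel. Mice 3, 6 and 8 lie to the right and are the highest for Mdm2, and mice 4, 5 and 7 lie to the left and are the highest for Perp.

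Pairs without Cdkn1a were compared after the values had been seen. Perp and Ccng1 had r = -0.748 (exact permutation p = 0.0312, adjusted p = 0.283 over the genes compared with Ccng1; rho = -0.714, p = 0.0576; r = -0.912 without mice 4 and 8). Perp and Gadd45a, both highest in mouse 5, had r = 0.643 (exact permutation p = 0.0845, adjusted p = 0.370 over the genes compared with Perp; rho = 0.643, p = 0.0962; r = 0.390 without mice 5 and 7). Mdm2 and Ccng1 had r = 0.603 (exact permutation p = 0.112, adjusted p = 0.567 over the genes compared with Mdm2; rho = 0.619, p = 0.115; r = 0.717 without mice 2 and 7, farthest from the median of Mdm2, but 0.356 without mice 4 and 8, farthest from that of Ccng1). Gadd45g, among the dim genes, had r = 0.739 with Cdkn1a (exact permutation p = 0.0256, adjusted p = 0.268 over all named genes; rho = 0.690, p = 0.0694), which was 0.456 without mice 4 and 6. At an unadjusted p under 0.05, 4.64% of all genes went with Mdm2 and 5.42% against it, 7.27% and 8.07% with and against Ccng1, 7.52% and 7.50% with and against Perp, and 2.51% and 4.46% with and against Gadd45a. Gadd45b (r = -0.120, exact permutation p = 0.791) and Cdkn2a (r = -0.391, p = 0.323) showed no relation to Cdkn1a past the threshold.

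Other genes that p53 induces were set beside Cdkn1a from a fixed list of 30, of which 16 had a probe set and 10 were bright enough. At an unadjusted p under 0.05, 5 of the 10 went with Cdkn1a and 0 against it, beside 9.12% and 8.85% of all genes. None passed after adjustment. The median r of the 10 was 0.594, against -0.072 over all genes, and both the count and the median include Tap1. Phlda3, a p53-induced inhibitor of AKT, read 82.8 in mouse 4 and 302 in mouse 6 (r = 0.906, exact permutation p = 0.00179, adjusted p = 0.0975). Zmat3, a p53-induced RNA-binding protein, read 186 in mouse 7 and 411 in mouse 8 (r = 0.828, exact permutation p = 0.0157, adjusted p = 0.177). Tap1, the peptide transporter of antigen presentation, is also in the interferon list and is induced by interferon as well as by p53. It read 323 in mouse 7 and 2263 in mouse 6 (r = 0.971, exact permutation p = 0.000273, adjusted p = 0.0747). The others of the 5 were Btg2, an antiproliferative gene (580 in mouse 5, 1442 in mouse 6), and the kinase gene Plk2 (337 in mouse 2, 666 in mouse 6), both named after their values were seen. The kinase gene Plk3, by contrast, had r = -0.616 and the repair gene Xpc r = -0.564, neither past the threshold.

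Among genes that act on p53 no call was made. Of 7 tested regulators and DNA damage kinases, 0 went with or against Cdkn1a at an unadjusted p under 0.05 (median r -0.167). Of all genes, 9.12% went with it and 8.85% against it. Hipk2, a kinase that phosphorylates p53, read 12.2 in mouse 5 and 449 in mouse 2, and Atm, the kinase that responds to DNA breaks, 30.9 in mouse 5 and 303 in mouse 2. Both mouse 5 values lay under the floor of 37.2 and were raised to it, so how far below it they lay was not used. Both genes were thus lowest in mouse 5, where Perp and Gadd45a were highest, on the array with the lowest median (146). Chek2, a checkpoint kinase, ranged 1.65-fold.

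A further list held other growth arrest genes. Of 9 tested, 2 went with Cdkn1a at an unadjusted p under 0.05 (Cdkn2c and Ccng2) and 2 against it (Cdkn1c and Gas1), none after adjustment, at a median r of -0.206. These small counts were not tested against the shares of all genes, 9.12% with Cdkn1a and 8.85% against it. Gas1, a membrane protein of growth-arrested cells, had its 3 lowest values, 106, 134 and 153, in mice 8, 3 and 6, whereas the other mice lay from 384 to 550 (r = -0.867, exact permutation p = 0.00615, adjusted p = 0.126). Cdkn1c, which encodes the kinase inhibitor p57, read 98.5 in mouse 8 and 243 in mouse 2 (r = -0.740). Ccng2, the cyclin G2 gene that FOXO factors induce, read 184 in mouse 7 and 402 in mouse 6 (r = 0.781).

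Cell death and proliferation genes are read against the 9.12% of all genes that went with Cdkn1a and the 8.85% that went against it before adjustment. Of 15 tested BCL2 family and caspase genes, 3 went with Cdkn1a at an unadjusted p under 0.05 (Mcl1, Bid and Bok) and 2 against it (Bnip3 and Cycs), at a median r of 0.176. Bid, which links death receptors to mitochondria, read 254 in mouse 7 and 454 in mouse 6, and Bok, a relative of Bax, 368 in mouse 4 and 738 in mouse 6. Bik, another death-promoting member, read 55.0 in mouse 5 and 373 in mouse 1 and did not follow Cdkn1a (r = 0.033). Of 15 tested cell cycle genes, 3 went with Cdkn1a (Ccnd1, Ccnb2 and Mcm5) and 0 against, at a median r of 0.466. Ccnd1, the cyclin D1 gene, read 235 in mouse 4 and 726 in mouse 6 (r = 0.864), and Mcm5, a subunit of the replication helicase, 145 in mouse 7 and 574 in mouse 6 (r = 0.742). None of these passed after adjustment.

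A list of glucocorticoid and fasting responders, of which 13 were tested, was read beside Cdkn1a. Only Fkbp5, a co-chaperone of the glucocorticoid receptor, went with Cdkn1a at an unadjusted p under 0.05, beside 9.12% of all genes. Fkbp5 read 498 in mouse 4 and 922 in mouse 6, in the same order of mice as Cdkn1a (r = 0.978, exact permutation p = 4.96e-05, adjusted p = 0.0747; r = 0.953 without mice 4 and 6). Among the widest of the list, G6pc, which frees glucose from its phosphate, lay between 541 (mouse 2) and 4958 (mouse 5, r = 0.235), Mt1, a metallothionein, 5707 in mouse 8 and 14908 in mouse 4 (r = -0.695), and the clock gene Per1 348 in mouse 5 and 684 in mouse 4 (r = -0.487). The median r of the list was -0.259.

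**Figure D4:**
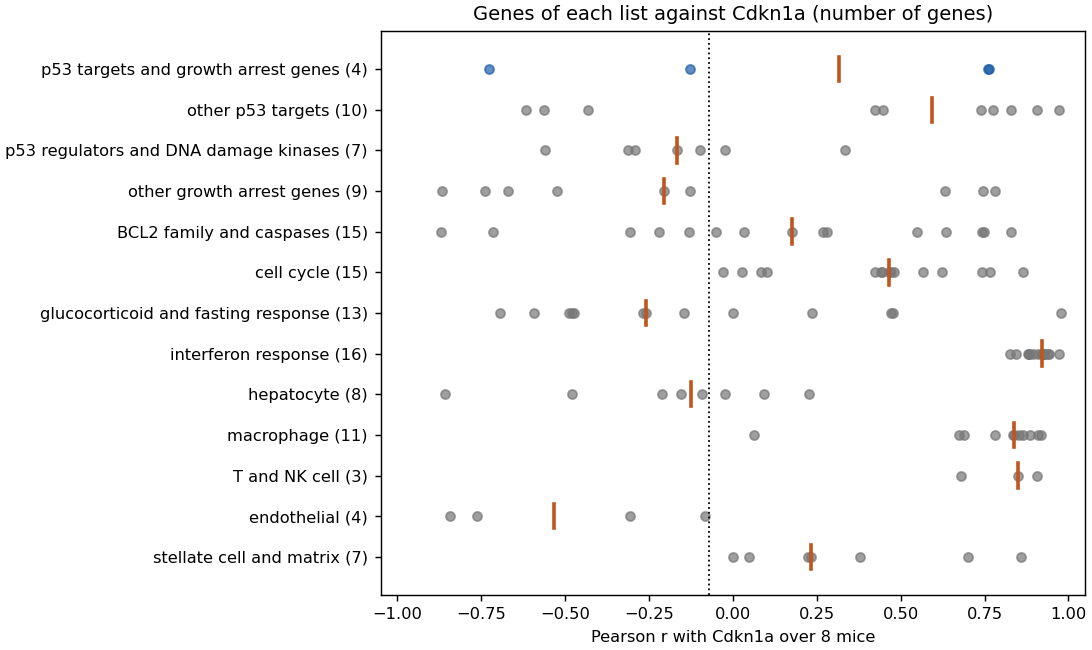
Pearson r with Cdkn1a over 8 mice for each tested gene (points) of the fixed lists, with each list's median (orange bar) and the median of all tested genes (dotted line, -0.072); Cdkn1a itself is left out. The interferon response, T and NK cell and macrophage lists lie at the right, with medians of 0.921, 0.851 and 0.839, and the other p53 targets have a median of 0.594. Tap1 is in both the interferon response list and the other p53 targets.

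Interferon response genes differed widely between these livers, and Cdkn1a was set against their mean. All 16 tested interferon response genes had r above 0 with Cdkn1a at an unadjusted p under 0.05, beside 9.12% of all genes. Their median r was 0.921. Ubd, Gbp3 and Gbp2, the widest of them, ranged at least 201-fold, 39.8-fold and 35.1-fold. The first is a lower bound, since Ubd was below the floor in mouse 7. The score (mean log2 difference from each gene's own mean) put mice 7, 4 and 5 together at the low end (-1.63, -1.50 and -1.47) and spread the others over -0.17 (mouse 1), 0.01 (mouse 2), 0.89 (mouse 3), 1.72 (mouse 8) and 2.15 (mouse 6). Cdkn1a followed it with r = 0.944 (exact permutation p = 0.00119, adjusted p = 0.0318 over 4869 genes; rho = 0.952, p = 0.00114, adjusted p = 0.0721), and it was the 1 of the 5 tested genes past the threshold, against 3.68% of all genes in that direction and 1.93% in the other. At an unadjusted p under 0.05 Cdkn1a and Ccng1 went with the score and Perp against it, beside 10.4% and 12.0% of all genes. Without mice 6 and 8 r was 0.894, and with arrays scaled to a common median it was 0.920. When any 1 mouse other than mouse 5 was left out, r lay between 0.920 and 0.956 and the adjusted p between 0.0561 and 0.152. Without mouse 5 r was 0.972 and the adjusted p 0.0485 by the permutation test. The second Cdkn1a probe set had r = 0.793 with the score (exact permutation p = 0.0225, adjusted p = 0.0225 over the 2 scores; rho = 0.619, p = 0.115), but 0.376 without mice 6 and 8. Its adjustment covered 2 tests only and cannot be set beside the one over 4869 genes. Over all genes Ccng1, with a lower exact permutation p of 0.0155, had an adjusted p of 0.118.

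Ccng1 (r = 0.801, exact permutation p = 0.0155, adjusted p = 0.118; rho = 0.643, p = 0.0962) and Perp (r = -0.808, exact permutation p = 0.0200, adjusted p = 0.134; rho = -0.619, p = 0.115) did not pass against the interferon score. Neither did Mdm2 (r = 0.668, exact permutation p = 0.0796, adjusted p = 0.283; rho = 0.714, p = 0.0576), whose r was 0.340 without mice 6 and 8, or Gadd45a (r = -0.226, exact permutation p = 0.599, adjusted p = 0.814; rho = -0.071, p = 0.882). Of the dim genes, Gadd45g had r = 0.830 (exact permutation p = 0.00387, adjusted p = 0.0722; rho = 0.619, p = 0.115), and 0.514 without mice 6 and 8.

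The macrophage and the T and NK cell scores were lowest in mice 4, 5 and 7 and highest in mice 6 and 8. The interferon score had the same extremes. Of 14 macrophage markers 12 had a probe set and 11 were tested, and none had a mean at or below the floor. Their summed intensity ranged from 6127 in mouse 4 to 39488 in mouse 6. The macrophage score followed the interferon score (r = 0.959, exact permutation p = 0.000174; rho = 0.976, p = 0.000397; r = 0.958 without mice 6 and 8). Cdkn1a had r = 0.880 with the macrophage score (exact permutation p = 0.00335, adjusted p = 0.0570; rho = 0.905, p = 0.00456; r = 0.817 without mice 6 and 8). The second Cdkn1a probe set had r = 0.809 (exact permutation p = 0.0153, adjusted p = 0.0225 over the 2 scores; rho = 0.548, p = 0.171), but 0.290 without mice 6 and 8. This adjusted p also covered 2 tests only and cannot be set beside the 0.0570 over all genes. None of the 5 genes passed against the macrophage score (0 of 5), while 3.22% of all genes passed with it and 1.70% against it. Cdkn1a and Ccng1 (r = 0.716, p = 0.0470 in the exact permutation test) went with the macrophage score at an unadjusted p under 0.05. By that unadjusted threshold 538 of all 4869 genes went with the macrophage score and 610 against it. Gadd45g had r = 0.927 (exact permutation p = 0.00171, adjusted p = 0.0563; rho = 0.643, p = 0.0962), and 0.552 without mice 6 and 8. Of the 11 macrophage markers 8 went with Cdkn1a at an unadjusted p under 0.05, beside 9.12% of all genes. The highest r values were those of Mpeg1 (r = 0.919) and Ctss (r = 0.908). Clec4f, the marker of resident Kupffer cells, did not follow Cdkn1a (r = 0.064). Of 10 T and NK cell markers 9 had a probe set and 3 were tested, with a median r of 0.851 with Cdkn1a and a summed intensity from 423 in mouse 4 to 3533 in mouse 6. Their score ran from -1.52 in mouse 4 to 1.80 in mouse 8, while the defining markers Cd3g, Cd3d and Cd8a had means at or below the floor. Ccl5, a chemokine of T and NK cells (r = 0.906), and Ltb, a lymphotoxin (r = 0.851), went with Cdkn1a at an unadjusted p under 0.05. Cd4, the third, did not (r = 0.679, exact permutation p = 0.0533). The 2 tested of 6 neutrophil markers scored lowest in mouse 5 (-0.47) and highest in mouse 6 (1.48), with 0.02 in mouse 8 and -0.17 in mouse 3. Csf3r, the receptor for granulocyte colony-stimulating factor, went with Cdkn1a before adjustment (r = 0.767), and S100a8 did not (r = 0.620, exact permutation p = 0.0763). The summed intensity of the neutrophil markers ranged from 1097 in mouse 5 to 2728 in mouse 6. In whole liver a change in the number of cells of a type and a change in RNA per cell cannot be told apart, and the part of macrophages, T and NK cells or neutrophils in the Cdkn1a values was not tested.

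**Figure D5:**
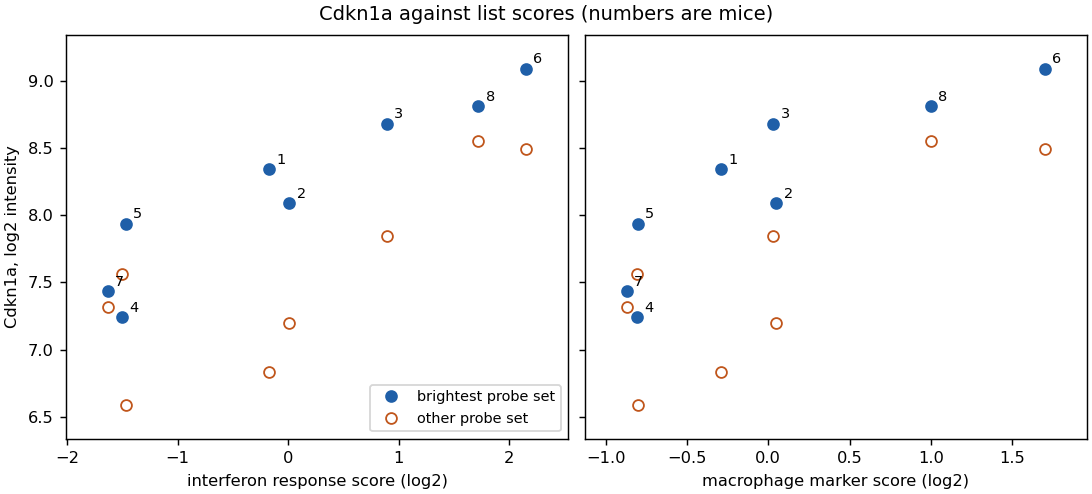
Log2 intensity of Cdkn1a on its brightest probe set (filled, numbered by mouse) and its second probe set (open) against the interferon response score and the macrophage marker score, both on the log2 scale, in 8 mice. On the brightest probe set mice 4, 5 and 7 lie lowest and mice 3, 6 and 8 highest, and the second probe set is highest in mice 6 and 8.

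The genes most like each tested gene were named by a fixed rule, the 2 with the highest r over the 8 mice, and none passed after adjustment over all genes. For Cdkn1a they were Fkbp5 and Orm2, an acute phase glycoprotein, which read 1271 in mouse 4 and 13315 in mouse 8 (r = 0.978, exact permutation p = 0.000149, adjusted p = 0.0747; rho = 0.976). For Mdm2 they were Crp and Lbp, a pentraxin and a lipopolysaccharide-binding protein that the liver secretes. Crp read 540 in mouse 7 and 1094 in mouse 8 (r = 0.942, exact permutation p = 0.00119, adjusted p = 0.454; rho = 0.905), and Lbp 1274 in mouse 2 and 3052 in mouse 6 (r = 0.940, exact permutation p = 0.00131, adjusted p = 0.454; rho = 0.976). For Ccng1 they were Mbp and Eogt (r = 0.967 and 0.959), both highest in mouse 8. For Perp they were Ube2b, a ubiquitin-conjugating enzyme, and Sbf2 (r = 0.972 and 0.964), and for Gadd45a the mRNA export factor Alyref and the uridine kinase Uck2 (r = 0.931 and 0.929), all 4 highest in mouse 5. With 4868 genes and 8 mice, high correlations arise among many genes, and the likeness is a description.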

How the data were processed

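Liver RNA of 8 mice was measured on Affymetrix U74Av2 arrays with a Hewlett-Packard GeneArray scanner, per the labels. The authors deposited a linear intensity for each probe set on each array. The labels do not say how probes were summarised, and the nearly equal trimmed means show that arrays had been scaled. No step of that scaling was repeated. Values below 37.2, the 25th percentile, were set to it, and log2 was taken. Testing was limited to means of 165 (the 50th percentile) or more, and 66 control probe sets were left out. By the platform annotation, 10833 probe sets had a single gene and were named. Another 396 had several genes and 1193 had none. Promoter sequences are from RefSeq.

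Spread was tested with limma 3.58.1 in R 4.3.3 (squeezeVar, robust, with a trend, 7 residual and 3.80 prior degrees of freedom). Relations were tested over all 40320 pairings of the mice (smallest possible p 2.48e-05) with numpy 2.4.6, for 7 quantities (the 5 tested genes and 2 scores), each adjusted by Benjamini-Hochberg over all genes. For the dim genes the adjustment ran over all named genes whose values varied. Both tests were tried on simulated data. The precision is limited by the number of arrays. Where nothing says how the animals were housed or processed, p-values speak only for these samples. The F test concerns their spread, and the permutation test the pairing of values across mice. The genes, the lists and the tests were chosen with earlier results of these data known. Named genes are the listed ones, the 2 most like each, and up to 3 of each other list with the largest SD. Any other was chosen after its values were seen. Alternatives covered scaling, floor, filter, choice of probe set and mice. A planned comparison with Trp53 could not be made.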

Additional observations from a re-analysis of the deposited data

Results flagged for a closer look

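Of 43 sets of 8 values examined (the listed genes on each probe set, the named genes and 2 scores), 2 had a mouse whose gap to its nearest neighbour exceeded 0.526 of the range on the log2 scale, Dixon's critical value for 8 values. Chance exceeds it about once in 20 sets. On the second Gadd45b probe set, mouse 6 (109) stood above the others with a gap of 0.611 of the range. That probe set was under the floor of 37.2 in 5 mice, and the brighter Gadd45b probe set read 135 in mouse 6 and showed no such gap. Plk1, a mitotic kinase of the cell cycle list, read 165 in mouse 5, below the 338 of the next mouse, a gap of 0.604. Its probe set shares probes with related transcripts.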

How the results depend on the processing

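The F test passed 0 of all probe sets in every setting, so its 0 for the listed genes shows no stability. Before adjustment its count was 0, but 1 without mouse 1, 2, 5 or 8 and with the floor at the 35th percentile. The chi-square test marked 2 of 5, but 8 of 8 with no filter, 3 with averaged probe sets, and 1 without mouse 2, 7 or 8 or without mice 6 and 8. The count with a 2-fold range was 3 (23.4% of all genes), from 1 to 3 without any 1 mouse (17.9% to 22.5%), 4 under quantile normalization (23.2%), 2 of 3 with the stricter filter (19.2%), 6 of 8 with no filter (31.8%), and 1 without mice 6 and 8 (14.3%, added after the data were seen). The count passing against the interferon score was 1 under each scaling, floor and filter and with averaged probe sets, but from 0 to 1 without any 1 mouse, 0 without mice 6 and 8 (r = 0.879 with the score rebuilt on 6 mice, adjusted p = 0.456), and 0 with Spearman's rho. That count was not taken with the second Cdkn1a probe set alone, whose r was 0.793, and 0.376 without mice 6 and 8. Fewer mice leave fewer pairings. Without mouse 3, 4, 6 or 8, or without mice 6 and 8, 0 of all genes passed against the interferon score. Those 0s show nothing particular to Cdkn1a. Against the macrophage score 1 gene, Cdkn1a, passed when all its probe sets were averaged (r = 0.934, adjusted p = 0.0282), and 0 passed otherwise. When any 1 mouse other than mouse 2 was left out, or mice 6 and 8, 0 of all genes passed against that score. The relation to Cdkn1a passed for 0 listed genes in every setting. Under each scaling, floor, filter and choice of mice 0 of all genes passed, so those 0s show no stability. With averaged probe sets 310 of all 4868 genes passed. So averaged, Mdm2 had r = 0.712 and Ccng1 0.795. The sign of r turned for Gadd45a alone: with the interferon score it was 0.142 without mouse 5 (from -0.483 to 0.142 over all mice left out in turn), and with the macrophage score 0.378 without mouse 5 and 0.065 without mouse 8 (from -0.423 to 0.378), and rho was 0.048. The cause was not tested. Ccng1 and Gadd45a were too dim for the stricter filter. No paired analysis was possible because there is 1 group.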

Other observations

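Markers of the remaining cell types were also read against Cdkn1a. Of all genes, 9.12% went with Cdkn1a and 8.85% against it before adjustment. Of 4 tested endothelial markers, 2 went against Cdkn1a at an unadjusted p under 0.05 and none after adjustment. Kdr, a VEGF receptor of endothelium, read 139 in mouse 8 and 512 in mouse 4 (r = -0.842, exact permutation p = 0.00885, adjusted p = 0.140), and Tie1, another endothelial receptor, 146 in mouse 8 and 402 in mouse 4 (r = -0.762, exact permutation p = 0.0275, adjusted p = 0.222). Of 7 tested stellate cell and matrix genes, 2 went with it, the fibrillar collagen genes Col1a1 (314 in mouse 5, 969 in mouse 6, r = 0.859, exact permutation p = 0.00662, adjusted p = 0.127) and Col3a1 (140 in mouse 5, 591 in mouse 6, r = 0.701, exact permutation p = 0.0342, adjusted p = 0.240). Among 4 tested B and plasma cell markers, Igha, the IgA heavy chain, went against Cdkn1a (r = -0.807, exact permutation p = 0.0113, adjusted p = 0.153), as did Hba-a1, the alpha globin gene, of 2 tested erythrocyte markers (r = -0.736, exact permutation p = 0.0442, adjusted p = 0.263), and Ttr, transthyretin, of 8 hepatocyte markers (r = -0.859, exact permutation p = 0.00811, adjusted p = 0.133). The other B and plasma cell markers were Cd79a (r = -0.393), Ms4a1 (0.271) and Ighm (0.688), and that list had a median of -0.061. Of the cholangiocyte markers Cd24a alone was tested (r = 0.748, exact permutation p = 0.0303, adjusted p = 0.232), and Krt7, Krt19 and Epcam had means at or below the floor. These genes were named after their values were seen.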
